A study of Mus musculus with 20 samples.

Results

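The comparison described here is that of lungs from Arg2 knockout mice with lungs from wild type mice, both kept in room air. Its members were taken by their labels: the libraries of knockout and wild type mice breathing 21% oxygen, with the A and B libraries of a sample number summed. They are 8 samples from 12 libraries, 4 knockout and 4 wild type, out of 16 samples in 20 libraries in all. The remaining 8 samples, 4 of each genotype, came from mice kept at 10% oxygen and served for a second look at the same genotype difference. All mice were 8 to 10 weeks old, of both sexes by the labels (though all 16 samples held more counts of Y-linked genes than of Xist), on a mixed C57 and 129 background, and had spent 28 days at their oxygen level. Wild type mice carried Arg2+/+ and knockout mice Arg2-/-, and no other allele or agent is named for either group. The sources used here do not describe how the knockout allele was made. Whole lung was snap frozen, and total RNA without ribosomal RNA was sequenced with a directional library kit. The labels do not say whether each number is a separate animal, so p-values reflect only how far samples spread, which may be technical. That spread was estimated over all 16 samples, those at 10% oxygen included.

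Arginase 2, found in mitochondria, is 1 of the mammalian arginases and cleaves arginine to urea and ornithine. Arginine is also the substrate of the nitric oxide synthases, whose product relaxes the vessels of the lung, and ornithine feeds the synthesis of polyamines and proline. Loss of the enzyme therefore touches arginine use at a branch between these pathways. The question of the comparison is how the lung transcriptome differs with Arg2 genotype before any hypoxia.

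Wild type 3 had the fewest reads in genes, 9531270, and knockout 3 the most, 63331530. A count of 0 allows a level of up to 0.0474 to 0.315 CPM (counts-per-million, scaled for library composition), which covers counting error only. Surfactant protein C (Sftpc), a defining transcript of alveolar type II cells, was between 9036 and 10860 CPM in all 8 samples. Wild type 3 stood apart from the other wild type samples. In it 25.3% of the uniquely aligned reads fell in genes, against 55.6% to 59.5% in the other 3 wild type samples and 49.3% to 54.3% in the knockout samples. On the first principal component of the 5000 genes of highest level, which held 56.1% of the variance, wild type 1, 2 and 4 lay at -7.63, -19.5 and -10.4. Wild type 3 lay at 6.68, among the knockout samples at 5.61 to 8.85. Wild type 3 had a Spearman correlation of 0.9505 to 0.9774 with the knockout samples and of 0.8957 to 0.9412 with the other wild type samples, described over those 5000 genes. Levels also followed the GC content of transcripts: the slope, in log2 units per 10 points of GC, was 0.0925 to 0.268 in wild type 1, 2 and 4, -0.126 in wild type 3 and -0.104 to -0.0744 in the knockout samples. Results are therefore given with all 8 samples first and then without wild type 3, and where it matters after the GC trend of each sample was removed.

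**Figure D1:**
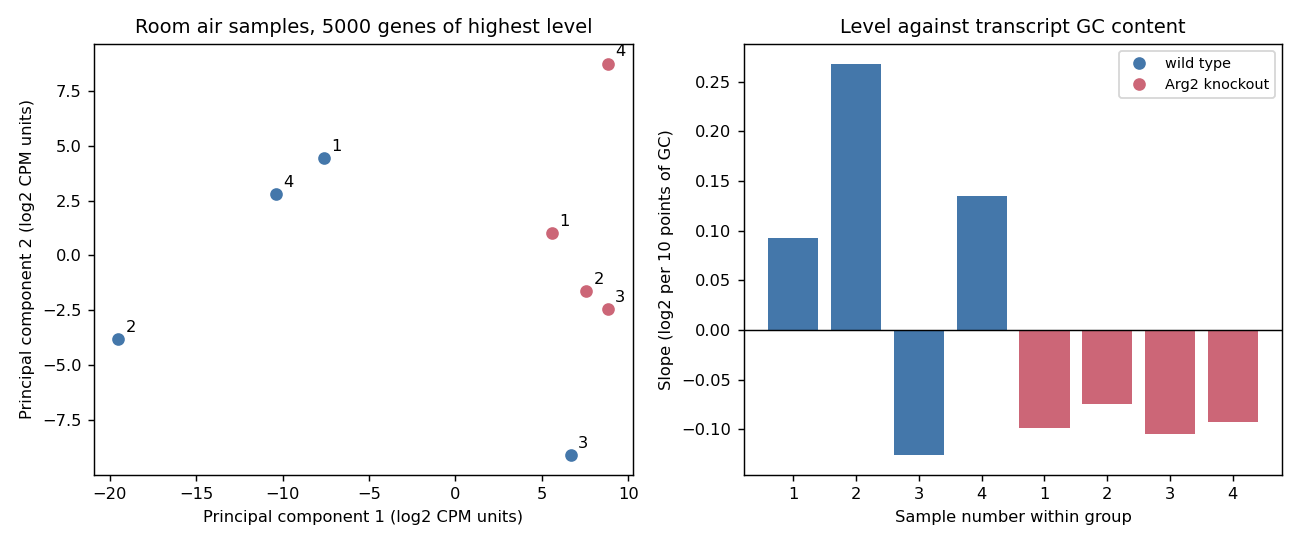
Left, the 8 room air samples on the first and second principal components of log2 CPM over the 5000 genes of highest level, numbered within their group; right, bars of the slope of each sample's log2 level, relative to the mean of the 8 samples, on transcript GC content. Wild type 3 lies with the knockout samples on the first component and shares their negative slope of -0.126.

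Arg2 (chromosome 12, 79130777 to 79156301, plus strand, GRCm38) had levels of 8.47, 9.14, 11.8 and 7.3 CPM in wild type 1 to 4 and 4.58, 5.25, 4.88 and 7.78 CPM in knockout 1 to 4. Wild type 3 held the highest of the 8 levels, and the sample labelled knockout 4 was above wild type 4, so the groups overlapped by 1 sample. Arg2 remained detected in every knockout sample; the sources used here do not say which exons the knockout lacks. The log2 fold change, knockout over wild type, was -0.70 ± 0.21 (SE, n = 4 and 4) with an adjusted p of 0.0843 in edgeR's quasi-likelihood test, which misses the threshold of 0.05 used throughout. Without the sample labelled knockout 4 it was -0.89, with an edgeR adjusted p of 0.112. In the hypoxia samples, which are other samples, the same difference was -1.13 with an adjusted p of 0.00191.

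Across the transcriptome 12 genes were called at an adjusted p under 0.05, 9 of them higher (0.0571%) and 3 lower (0.019%) in the knockout. Together these are 0.0761% of the 15761 genes tested. After the GC trend of each sample was removed, 99 genes were called (0.628%), 32 higher and 67 lower, against 9 and 3 before. At an unadjusted p under 0.05 there were 3406 genes, or 21.6%, of which 1626 were higher and 1780 lower. The counts at that p given for gene lists below stand beside this share. The 4 knockout samples did not overlap the 4 wild type samples in 679 genes on the high side (4.31%) and in 956 on the low side (6.07%). All 12 called genes were among them. The middle 50% of all genes lay between log2 fold changes of -0.17 and 0.16, with a median of -0.02, and the called genes differed by 0.46 to 1.21 in size. Leaving out any of wild type 1, 2 or 4 or knockout 1, 2 or 3 left 0 calls in edgeR, with 2073 to 3192 genes at an unadjusted p under 0.05. DESeq2 called 1002 genes (529 higher, 473 lower) and limma voom 958 (603 and 355) with all samples. The counts that these tools gave for gene lists below stand beside these totals, out of 15761 genes. In edgeR, leaving out the sample labelled knockout 4 left 3, and leaving out wild type 3 gave 2197.

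The 3 genes that fell encode metabolic enzymes and a mitochondrial ATPase. Mthfd1 (chromosome 12, 76255298 to 76319803), a cytosolic enzyme with several activities that interconvert folate carriers of single carbon units, was at 137, 135, 135 and 143 CPM in wild type 1 to 4 and 94.8, 97.9, 93.3 and 102 CPM in knockout 1 to 4. Each group spanned a narrow range and wild type 3 sat with the other wild type samples. The log2 fold change was -0.50 ± 0.08 (edgeR adjusted p = 0.0273). Pmm1 (chromosome 15, 81951108 to 81960930) encodes a phosphomannomutase, which supplies mannose phosphate for glycosylation. It was at 18.01, 17.3, 19.1 and 21.1 CPM in wild type 1 to 4 and 12.2, 13.4, 12.9 and 14.5 CPM in knockout 1 to 4, a log2 fold change of -0.52 ± 0.10 with an edgeR adjusted p of 0.0498. Vwa8 (chromosome 14, 78849052 to 79202310) encodes a mitochondrial ATPase; its levels were 94.8, 103, 86.2 and 96.7 CPM in wild type 1 to 4 and 76.3, 67.5, 70.7 and 62.1 CPM in knockout 1 to 4. Here the highest knockout level stayed below the lowest wild type level, that of wild type 3, and the log2 fold change was -0.46 ± 0.09 (edgeR adjusted p = 0.0498).

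Among the 9 genes that rose, Lox encodes lysyl oxidase, the secreted enzyme that crosslinks collagen and elastin. Lox (chromosome 18, 52516067 to 52529867) was at 39.0, 34.2, 59.3 and 30.6 CPM in wild type 1 to 4 and 83.6, 81.0, 66.9 and 86.2 CPM in knockout 1 to 4. Wild type 3 was the highest of its group, and knockout 3 the lowest of the knockout samples, and the groups did not overlap. The log2 fold change was 0.98 ± 0.16 (edgeR adjusted p = 0.0273) and 1.20 without wild type 3. Of the 5 lysyl oxidase genes tested, Lox alone was called.

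Rgs18, a regulator of G protein signalling in platelets, was the single blood cell marker called. Rgs18 (chromosome 1, 144752683 to 144775435) was at 6.88, 4.46, 7.2 and 5.91 CPM in wild type 1 to 4 and 11, 10.3, 12.6 and 14.8 CPM in knockout 1 to 4, and every knockout sample exceeded every wild type sample. Its log2 fold change of 1.01 ± 0.19 had an edgeR adjusted p of 0.0498. Socs6 (chromosome 18, 88665224 to 88927481), of the family of suppressors of cytokine signalling, was at 21.5, 19.5, 23.3 and 20.3 CPM in wild type 1 to 4 and 28.9, 29.1, 29.3 and 30.1 CPM in knockout 1 to 4. Here the knockout samples lay within a span narrower than their distance from the wild type samples, and the log2 fold change was 0.48 ± 0.09 (edgeR adjusted p = 0.0459).

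The remaining 6 genes that rose were of varied kinds. Ikzf5 (chromosome 7, 131388652 to 131410521), a zinc finger factor of the Ikaros family, was at 24.0, 20.7, 24.7 and 22.6 CPM in wild type 1 to 4 and 33.3, 33.3, 31.6 and 32.0 CPM in knockout 1 to 4, a log2 fold change of 0.51 ± 0.08. H3f3b (chromosome 11, 116021912 to 116027962) encodes histone H3.3 and was at 208, 181, 244 and 183 CPM in wild type 1 to 4 and 351, 264, 288 and 346 CPM in knockout 1 to 4, a log2 fold change of 0.62 ± 0.11. H3.3 has near-identical copies in the genome, so its counts are uncertain. Spin4 (chromosome X, 95022510 to 95026682), of the spindlin family, was at 5.3, 3.88, 4.84 and 6.03 CPM in wild type 1 to 4 and 9.19, 8.12, 7.73 and 8.24 CPM in knockout 1 to 4, a log2 fold change of 0.73 ± 0.13. Fam103a1 (chromosome 7, 81762925 to 81769491), listed by RefSeq as Ramac and an activator of the methyltransferase of the mRNA cap, was at 6.66, 5.46, 9.03 and 5.52 CPM in wild type 1 to 4 and 13.4, 11.7, 12.8 and 9.58 CPM in knockout 1 to 4, a log2 fold change of 0.87 ± 0.15. Zfand6 (chromosome 7, 84613766 to 84689959), a zinc finger protein of the AN1 type, was at 51.9, 43.1, 62.6 and 43.5 CPM in wild type 1 to 4 and 82.3, 82.9, 72.7 and 83.9 CPM in knockout 1 to 4, a log2 fold change of 0.69 ± 0.12. The predicted gene Gm16386 (chromosome 17, 22784798 to 22817741) was at 5.38, 3.88, 6.13 and 4.98 CPM in wild type 1 to 4 and 11.9, 12.5, 12.02 and 10.1 CPM in knockout 1 to 4, and its log2 fold change of 1.21 ± 0.18 was the highest of the 12 called genes. The edgeR adjusted p of these 6 genes was between 0.0273 and 0.0472. Wild type 3 was the wild type sample nearest the knockout levels in 5 of these 6 genes, and in Spin4 it was not.

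**Figure D2:**
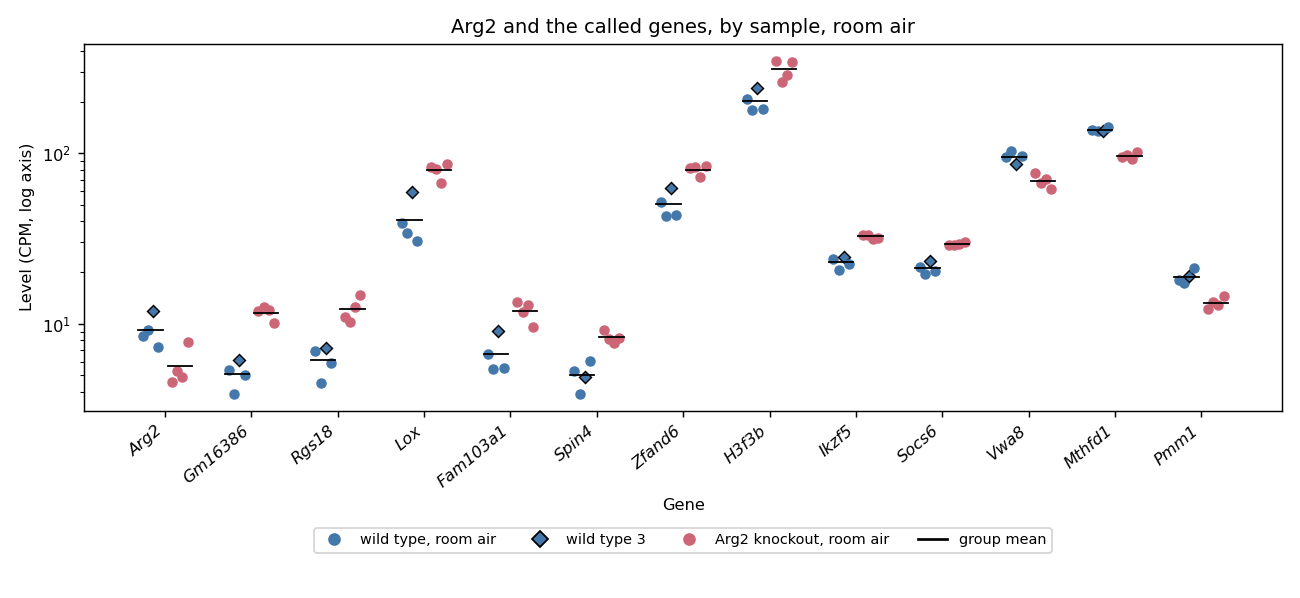
Level in CPM on a log axis of Arg2 and the 12 called genes in each of the 8 room air samples; circles are samples, diamonds mark wild type 3 and black lines are group means. The groups overlap for Arg2 and do not overlap for any called gene.

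The called genes had a median GC content of 40.8%, against 49.7% for all genes tested, along the axis on which wild type 3 and the knockout samples resembled each other. With the GC trend removed, Gm16386, Mthfd1, Lox, Zfand6, H3f3b and Vwa8 stayed called, with adjusted p of 0.0174 to 0.0339 in edgeR. Ikzf5, Fam103a1, Socs6, Spin4, Pmm1 and Rgs18 did not, at adjusted p of 0.0523 to 0.642. The part of library composition in these differences was not tested.

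Several genes lay just outside the threshold and are given as values. Ube2v2, a partner of ubiquitin-conjugating enzymes, had a log2 fold change of 0.94 ± 0.18 (edgeR adjusted p = 0.0514). Sgk1, a kinase induced by glucocorticoids, was at 176, 148, 169.5 and 166 CPM in wild type 1 to 4 and 266, 252, 199 and 300.5 CPM in knockout 1 to 4, with 0.63 ± 0.13 and 0.0528 for the edgeR test. On the low side, Siglec1, the sialic acid receptor of certain macrophages, was at 30.3, 40.2, 23.2 and 55.4 CPM in wild type 1 to 4 and 19.5, 20.4, 19.8 and 15.1 CPM in knockout 1 to 4. Its difference was -1.01 ± 0.19 (edgeR adjusted p = 0.0528), with no overlap between the groups. Cpt1a, which admits long-chain fatty acids to mitochondria, stood at -0.44 ± 0.09, Gramd1b, a carrier of cholesterol between membranes, at -0.57 ± 0.11, and Fndc1 at -0.88 ± 0.18. All of these had adjusted p between 0.0514 and 0.0528 in edgeR.

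Without wild type 3, 2197 of 15910 genes were called (13.8%), 1293 higher (8.13%) and 904 lower (5.68%). All 12 genes called with every sample were among them. Of these, 2188 were also tested with all samples, and each kept the sign it had there. In 1823 of the 2188, or 83.3%, wild type 3 was nearer the knockout mean than the mean of the other wild type samples. The 2188 genes were chosen by a fit without wild type 3, so this share follows in part from the choice. The genes higher in the knockout had a median GC content of 41.7% and the lower ones of 54.3%. With wild type 3 left out and the GC trend removed as well, 1119 genes were called (7.03%), 425 higher (2.67%) and 694 lower (4.36%). Of the 1114 tested with all samples, 810 were also called without the GC step.

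The genes of smallest p in that set were also chosen without wild type 3, and its level is given beside the others. Ptma, which encodes the nuclear protein prothymosin alpha, was at 48.9, 51.9, 94.0 and 54.7 CPM in wild type 1 to 4 and 91.8, 96.9, 96.6 and 82.4 CPM in knockout 1 to 4. Wild type 3 lay inside the knockout range and the other wild type samples reached at most 54.7 CPM. Its log2 fold change was 0.83 without wild type 3 (edgeR adjusted p = 3.65e-05) and 0.57 with it (adjusted p = 0.0648). Rap1a, a small GTPase of cell adhesion, was at 42.1, 38.9, 66.7 and 32.3 CPM in wild type 1 to 4 and 71.8, 71.4, 69.99 and 72.1 CPM in knockout 1 to 4. Tmed7, a cargo receptor between the endoplasmic reticulum and Golgi, was at 128, 111, 212 and 125 CPM in wild type 1 to 4 and 231, 231, 229 and 223 CPM in knockout 1 to 4. Lypla1, which removes fatty acids from proteins, was at 39.8, 36.9, 76.0 and 39.0 CPM in wild type 1 to 4 and 78.6, 76.9, 76.3 and 70.2 CPM in knockout 1 to 4. Wild type 3 lay inside the knockout range for Lypla1 and between the groups, nearer the knockout samples, for Rap1a and Tmed7. Fat2, a large cadherin, showed the same on the low side at 17.3, 17.2, 7.42 and 14.4 CPM in wild type 1 to 4 and 10.1, 7.91, 8.75 and 6.56 CPM in knockout 1 to 4.

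Clock genes had mostly negative log2 fold changes, and edgeR called none of them. The circadian clock runs on a loop in which Clock or Npas2 pairs with Arntl (BMAL1) to drive the Per and Cry repressors through E-boxes. The same pair drives Nr1d1, which in turn represses Arntl through ROR elements, and Dbp, which acts at D-boxes. Of the 19 clock genes 0 were called by edgeR (6 lower by DESeq2, 1 lower by limma voom), 14 had negative and 5 positive log2 fold changes, and the median was -0.55 against -0.02 for all genes. At an unadjusted p under 0.05 there were 9 on the low and 4 on the high side, beside 21.6% of all genes in either direction. In 5 genes all knockout samples were below all wild type samples and in 1 all were above (6.07% and 4.31% of all genes). Hour of day at tissue collection is not given in the labels.

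Promoter windows from 250 bases before to 50 bases after the transcript start are shown for 3 clock genes whose window held a clock motif and whose levels are described next. They come from RefSeq on GRCm38.p6, which matched 16 of the 19 clock genes. Capitals mark the E-box CACGTG, the D-box TTATGNAA or the ROR element ANTAGGTCA, searched on both strands. The first motif was present in 7.15%, the second in 3.38% and the third in 0.661% of 32851 promoters of that length. Among the 21 windows of the 16 clock genes, 6, 2 and 2 held them, from 5, 2 and 2 genes. The windows of Dbp and Nr1d1 held none of the 3 motifs.
Ciart, chr3:95882179-95882478 (minus strand): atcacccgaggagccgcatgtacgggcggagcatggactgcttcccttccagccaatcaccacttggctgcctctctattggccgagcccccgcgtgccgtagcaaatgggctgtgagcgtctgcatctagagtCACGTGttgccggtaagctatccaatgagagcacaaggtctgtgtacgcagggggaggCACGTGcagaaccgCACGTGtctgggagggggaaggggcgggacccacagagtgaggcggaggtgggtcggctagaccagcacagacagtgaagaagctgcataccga
Per3, chr4:151044616-151044915 (minus strand): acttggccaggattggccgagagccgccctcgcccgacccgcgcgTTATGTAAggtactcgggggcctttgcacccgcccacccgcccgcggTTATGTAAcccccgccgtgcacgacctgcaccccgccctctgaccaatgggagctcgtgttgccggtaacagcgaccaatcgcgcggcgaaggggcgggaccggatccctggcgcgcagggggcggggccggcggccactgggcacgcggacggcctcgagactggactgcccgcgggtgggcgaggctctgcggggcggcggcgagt
Arntl, chr7:113207261-113207560 (plus strand): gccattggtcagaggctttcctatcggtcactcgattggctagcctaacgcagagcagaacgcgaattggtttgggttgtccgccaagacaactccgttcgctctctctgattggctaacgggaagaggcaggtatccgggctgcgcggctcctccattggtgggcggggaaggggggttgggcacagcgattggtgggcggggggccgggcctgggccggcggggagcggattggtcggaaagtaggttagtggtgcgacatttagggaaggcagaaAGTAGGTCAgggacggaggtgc

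Dbp, the D-box activator, was at 38.0, 54.5, 35.6 and 159.9 CPM in wild type 1 to 4 and 16.1, 9.93, 11.8 and 20.9 CPM in knockout 1 to 4. Every knockout sample was below every wild type sample, and wild type 4 was far above the rest. The log2 fold change was -2.30 ± 0.66 (edgeR adjusted p = 0.0868). Nr1d1, the heme-binding repressor REV-ERB alpha, was at 69.7, 106, 88.7 and 114 CPM in wild type 1 to 4 and 41.3, 34.4, 39.2 and 40.5 CPM in knockout 1 to 4, a difference of -1.28 ± 0.38 with an edgeR adjusted p of 0.0887. Per3, the period gene with the pair of D-boxes shown, was at 50.6, 64.1, 51.8 and 156 CPM in wild type 1 to 4 and 31.8, 28.7, 30.1 and 37.0 CPM in knockout 1 to 4, or -1.35 ± 0.41 (edgeR adjusted p = 0.0949). Again the groups did not overlap and wild type 4 was the highest. Ciart, a repressor of the clock pair with the 3 E-boxes shown, was at 3.97, 5.86, 5.91 and 17.3 CPM in wild type 1 to 4 and 3.32, 2.87, 3.51 and 4.85 CPM in knockout 1 to 4. Here the sample labelled knockout 4 exceeded wild type 1, and the difference was -1.20 ± 0.34 (edgeR adjusted p = 0.0761).

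The partner genes ran the other way. Arntl, with the ROR element in 1 of its RefSeq windows, was at 25.7, 19.3, 21.5 and 5.29 CPM in wild type 1 to 4 and 39.8, 41.1, 35.7 and 34.1 CPM in knockout 1 to 4. All knockout samples exceeded all wild type samples, and wild type 4 held the lowest level, the reverse of its place for Dbp. The difference was 1.08 ± 0.35 (edgeR adjusted p = 0.108). Npas2 showed 1.10 ± 0.44, Cry2 -0.46 ± 0.13 and Per2 -1.22 ± 0.49, with edgeR adjusted p of 0.167, 0.077 and 0.172. Arntl, Npas2, Cry2 and Per2 were picked after their values had been seen. Without wild type 4 the median of the circadian clock list was -0.38, with 12 negative and 7 positive members and none called. Without wild type 3 it was -0.54, with 5 members called lower and 1 higher, beside 5.68% and 8.13% of all genes. After the further GC step 1 of 19 was called lower and 0 higher, beside 4.36% and 2.67%, a share near that of all genes.

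In hypoxia the same list had a median of 0.13, and the genotype differences of Dbp, Nr1d1, Per3 and Arntl were -0.21, -0.23, -0.01 and 0.37, none called. Ciart was called there in the opposite direction, at 1.17 (edgeR adjusted p = 0.0231). The test of the difference between the room air and hypoxia effects gave an adjusted p of 0.0367 for Ciart and of 0.314 to 0.568 for the other 4 genes.

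**Figure D3:**
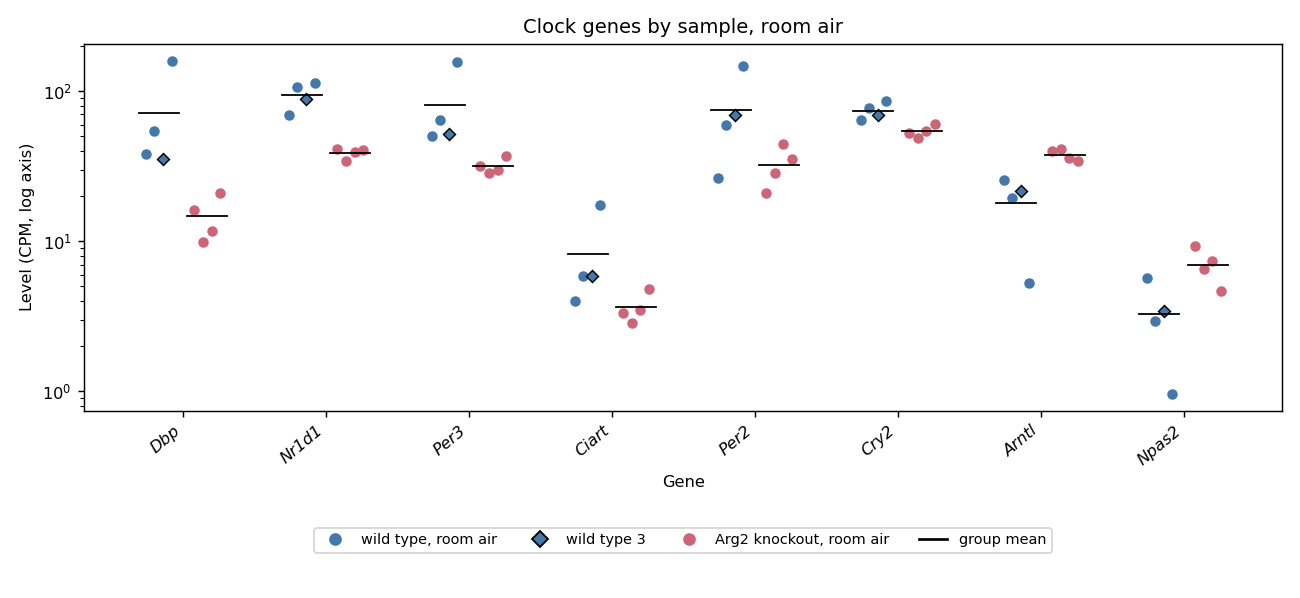
Level in CPM on a log axis of 8 clock genes in each of the 8 room air samples; circles are samples, diamonds mark wild type 3 and black lines are group means. Dbp, Nr1d1, Per3 and Cry2 are lower and Arntl is higher in all 4 knockout samples, with wild type 4 at the far end of each.

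B cell markers were lower in the knockout samples as a group, though no single gene passed. All 18 tested markers had a negative log2 fold change, the median was -0.68, and 11 had an unadjusted p under 0.05, beside 21.6% of all genes. DESeq2 called 2 of the markers lower and limma voom 6, beside 473 and 355 of all 15761 genes. Cd22, an inhibitory coreceptor of B cells, was at 40.6, 48.1, 26.9 and 40.1 CPM in wild type 1 to 4 and 24.1, 25.4, 15.9 and 19.7 CPM in knockout 1 to 4, with no overlap. Its difference was -0.89 ± 0.18 (edgeR adjusted p = 0.0541). Spib, a transcription factor of B cells and plasmacytoid dendritic cells, was at 14.1, 22.1, 11.7 and 16.2 CPM in wild type 1 to 4 and 8.2, 10.4, 9.07 and 7.48 CPM in knockout 1 to 4, or -0.88 ± 0.19 (edgeR adjusted p = 0.0601). The kinase gene Blk stood at -0.75 ± 0.25 and the IgM receptor Faim3 at -0.87 ± 0.30. Ms4a1, which encodes CD20 and was picked after its values were seen, differed by -0.13 ± 0.24 (edgeR adjusted p = 0.809).

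The summed level of the 18 B cell markers was 207 to 449.8 CPM in wild type and 189 to 282 CPM in knockout samples, and wild type 3 was the lowest wild type sample. Without wild type 3, 10 of the 18 were called lower, beside 5.68% of all genes, and the median was -0.89. Without knockout 3 and the sample labelled knockout 4, in turn, 0 were called and the median was -0.38. With wild type 3 left out and the GC trend removed, 10 were called lower, beside 4.36% of all genes. In hypoxia 17 of 18 were called lower, beside 12.1% of all genes, with a median of -1.20. Fewer B cells and less RNA per B cell cannot be told apart in whole lung. Genes of antigen presentation by MHC class II leaned the same way: in edgeR all 11 had negative values with a median of -0.25, and 0 were called. In DESeq2 10 were negative and 1 positive, and DESeq2 and limma voom each called 2 lower. At an unadjusted p under 0.05 in edgeR there were 2 of the 11, beside 21.6% of all genes. Without wild type 4 that median was -0.16. Their activator Ciita was at 50.4, 76.7, 38.1 and 74.0 CPM in wild type 1 to 4 and 39.5, 42.8, 35.3 and 32.7 CPM in knockout 1 to 4, or -0.68 ± 0.19 (edgeR adjusted p = 0.0741). T cell markers had a median of -0.06 over 22 genes, with 0 called by edgeR and 2 at an unadjusted p under 0.05. Their summed level was 151 to 225 CPM in wild type samples, 145 and 149 CPM in knockout 1 and 2, and 208 and 227 CPM in knockout 3 and the sample labelled knockout 4, which also held the most thymocyte marker RNA. In hypoxia 12 of the 22 were called lower, beside 12.1% of all genes, with a median of -0.93.

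Platelet and megakaryocyte markers leaned the other way. Of 18 tested, edgeR called 1 (Rgs18), beside 0.0571% of all genes called higher, 16 were positive, and the median was 0.39. DESeq2 and limma voom each called 4 higher, beside 529 and 603 of all 15761 genes, and edgeR called 0 of the 18 once the GC trend was removed. In 6 of them all knockout samples exceeded all wild type samples, beside 4.31% of all genes. Ppbp, which encodes a chemokine stored in platelet granules, was at 36.6, 21.4, 40.3 and 35.2 CPM in wild type 1 to 4 and 65.5, 66.5, 48.5 and 65.8 CPM in knockout 1 to 4, or 0.89 ± 0.19 (edgeR adjusted p = 0.0601). Pf4, a second granule chemokine, was at 15.4, 10.3, 17.5 and 16.4 CPM in wild type 1 to 4 and 20.4, 23.3, 22.2 and 22.5 CPM in knockout 1 to 4, or 0.58 ± 0.18 (edgeR adjusted p = 0.0928). Ppbp and Pf4 were picked after their values were seen. Without wild type 3, 6 of the 18 were called higher, beside 8.13% of all genes. In hypoxia none was called and the median was -0.06; the difference between the effects gave adjusted p of 0.223 for Ppbp, 0.835 for Pf4 and 0.306 for Rgs18.

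Neutrophil markers had a median of 0.72 over 14 genes, with 0 called by edgeR and 1 by DESeq2. At an unadjusted p under 0.05 there were 6, beside 21.6% of all genes. The summed level of the markers was 467 to 743 CPM in knockout 1 to 3 and 419 to 796 CPM in the wild type samples. In the sample labelled knockout 4 it reached 1461 CPM. Without that sample the median was 0.29, and without wild type 3 it was 1.11. Mmp8, the collagenase of neutrophils, was at 8.32, 4.4, 9.57 and 7.72 CPM in wild type 1 to 4 and 8.6, 12.9, 12 and 36.9 CPM in knockout 1 to 4. Cxcl5, a chemokine that attracts neutrophils, was not tied to that sample. It was at 0.53, 0.434, 0.645 and 0.113 CPM in wild type 1 to 4 and 1.94, 1.7, 1.84 and 1.26 CPM in knockout 1 to 4, without overlap, and differed by 2.07 ± 0.50 (edgeR adjusted p = 0.0643). The 9 erythroid markers tested were all positive, with a median of 0.99 and 0 called by edgeR or DESeq2 and 2 at an unadjusted p under 0.05. Without wild type 2 that median was 0.65. The globin genes held at most 1 count in any room air sample and were not tested.

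Chaperones of the endoplasmic reticulum and the heat shock genes leaned upward. Of 24 genes of the endoplasmic reticulum list, 18 were positive and 0 were called by edgeR, with a median of 0.20. At an unadjusted p under 0.05 there were 10 of the 24, beside 21.6% of all genes. DESeq2 called 5 higher and limma voom 4, beside 529 and 603 of all 15761 genes. Creld2, a chaperone-like protein induced by unfolded proteins, was at 26.1, 27.6, 36.8 and 27.6 CPM in wild type 1 to 4 and 35.6, 41.8, 40.2 and 39.0 CPM in knockout 1 to 4, or 0.42 ± 0.10 (edgeR adjusted p = 0.0631). Pdia4, a disulphide isomerase, was at 157, 145, 164 and 144 CPM in wild type 1 to 4 and 169.9, 207, 186 and 186 CPM in knockout 1 to 4 with no overlap, or 0.30 ± 0.08 (edgeR adjusted p = 0.074). Pdia6 of the same family differed by 0.35 ± 0.10 and Dnajc3, a cochaperone, by 0.36 ± 0.10. Hspa5, the main chaperone BiP and picked after its values were seen, was at 544, 521, 784 and 555 CPM in wild type 1 to 4 and 735, 893, 819 and 682 CPM in knockout 1 to 4. In Creld2, Dnajc3 and Hspa5 wild type 3 lay within the knockout range and the other wild type samples lay below it.

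Without wild type 3, 13 of the 24 were called higher and 1 lower (beside 8.13% and 5.68% of all genes), and after the further GC step 9 and 1 (beside 2.67% and 4.36%). In hypoxia 19 were called higher and 1 lower, beside 11% and 12.1% of all genes. There the difference was larger: for Creld2 1.55 and for Hspa5 1.46, and the test of the difference between the effects gave edgeR adjusted p of 0.00148 and 0.00872. Pancreas and gut markers were also higher in the knockout in hypoxia: all 4 tested were called, with a median of 5.75 against -0.2 in room air. The part of such tissue in the hypoxia differences of the chaperones was not tested. The 20 cytosolic heat shock genes had a median of 0.31 with 17 positive and 0 called by edgeR (4 at an unadjusted p under 0.05, 1 called by DESeq2), and 0.10 without knockout 3. Without wild type 1 the median was 0.19 and without wild type 3 it was 0.51. In hypoxia 17 of them were called higher, beside 11% of all genes.

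Most genes of the matrix had negative log2 fold changes that did not pass. Of 31 collagen and matrix genes, 23 had negative values, with a median of -0.21 and 0 called by edgeR (2 lower by DESeq2). On the low side 9 had an unadjusted p under 0.05, beside 1780 of all 15761 genes. Without wild type 2 the median was -0.13. Col6a3, a chain of collagen VI, was at 263, 266, 218 and 261 CPM in wild type 1 to 4 and 206, 205, 184 and 185 CPM in knockout 1 to 4, with no overlap, or -0.37 ± 0.11 (edgeR adjusted p = 0.0817). Fn1, fibronectin, was at 401, 636, 336 and 509 CPM in wild type 1 to 4 and 345, 354, 284 and 253 CPM in knockout 1 to 4, or -0.61 ± 0.19 (edgeR adjusted p = 0.0936). Without wild type 3, 4 of the 31 were called lower, beside 5.68% of all genes, and in hypoxia 13, beside 12.1%. Elastin itself differed in sign from most of the list: Eln was at 110.2, 69.4, 91.8 and 55.4 CPM in wild type 1 to 4 and 141, 144, 106 and 108 CPM in knockout 1 to 4, or 0.61 ± 0.23 (edgeR adjusted p = 0.139). The 16 elastic fibre genes had a median of -0.14 (-0.09 without wild type 1, without wild type 2 or without the sample labelled knockout 4), and Ltbp4, which binds latent TGF-beta, stood at -0.57 ± 0.21 without overlap. Fbln2, a fibulin, was -0.32 ± 0.15 in room air and 0.86 in hypoxia, and the effects differed with an edgeR adjusted p of 0.0153.

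EdgeR called none of the genes nearest to the arginase reaction. Among 25 tested genes of arginine and polyamine metabolism 0 were called by edgeR, with 5 at an unadjusted p under 0.05; the median was -0.02, equal to that of all genes. DESeq2 and limma voom each called 1 higher and 1 lower, beside 1002 and 958 of all 15761 genes in either direction. Arg2 itself, a member of the list, was the lower one. Arg1, the cytosolic arginase, was at 2.16, 2.08, 1.07 and 2.26 CPM in wild type 1 to 4 and 1.62, 1.59, 2.07 and 1.83 CPM in knockout 1 to 4, or -0.13 ± 0.31 (edgeR adjusted p = 0.855). Odc1, which turns ornithine into the first polyamine, was at 22.4, 21.2, 17.6 and 24.4 CPM in wild type 1 to 4 and 26.8, 22.4, 24.9 and 23.7 CPM in knockout 1 to 4, or 0.18 ± 0.14 (edgeR adjusted p = 0.464). Arg1, Odc1 and Nos2 below were picked after their values were seen. Azin1, an inhibitor of antizyme, was at 172, 128, 251 and 139 CPM in wild type 1 to 4 and 263, 292, 273 and 239.9 CPM in knockout 1 to 4, or 0.64 ± 0.17 (edgeR adjusted p = 0.0668). Wild type 3 was among the knockout levels for Azin1, which was called at 0.87 without it. Oaz1, the antizyme that marks Odc1 for degradation, stood at 0.46 ± 0.19. Ass1 and Amd1, the enzyme genes of arginine resynthesis and of the propylamine donor, held at most 1 count in any room air sample and were not tested.

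Genes of nitric oxide and cyclic GMP signalling had 0 of 20 called by edgeR and 3 at an unadjusted p under 0.05, beside 21.6% of all genes. DESeq2 called 1 of the 20, beside 1002 of all 15761 genes. The median was 0.14 and became 0.03 once the GC trend was removed. Nos3, the endothelial synthase, was at 22.6, 27.4, 23.3 and 26.2 CPM in wild type 1 to 4 and 23.6, 36.5, 29.9 and 28.2 CPM in knockout 1 to 4, or 0.24 ± 0.12 (edgeR adjusted p = 0.241). The inducible synthase gene Nos2 was at 3.91, 6.08, 1.07 and 4.67 CPM in wild type 1 to 4 and 4.26, 3.77, 3.1 and 1.98 CPM in knockout 1 to 4, or -0.33 ± 0.32 (edgeR adjusted p = 0.598). Ddah1, which degrades an endogenous inhibitor of the synthases, was at 33.2, 28.0, 35.9 and 28.9 CPM in wild type 1 to 4 and 40.03, 38.0, 38.3 and 38.0 CPM in knockout 1 to 4, with no overlap, or 0.30 ± 0.10 (edgeR adjusted p = 0.0966). Cav1, the caveolar protein that binds Nos3, stood at 0.34 ± 0.12. Among 21 folate enzymes edgeR called Mthfd1 alone, while DESeq2 called 2 lower and limma voom 1 higher and 2 lower. Mthfd1l, its mitochondrial relative, was at 10.4, 12.6, 9.78 and 22.5 CPM in wild type 1 to 4 and 7.64, 5.1, 6.74 and 7.82 CPM in knockout 1 to 4 without overlap, or -1.02 ± 0.23 (edgeR adjusted p = 0.0631). Slc25a32, the mitochondrial folate carrier, stood at 0.35 ± 0.12.

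**Figure D4:**
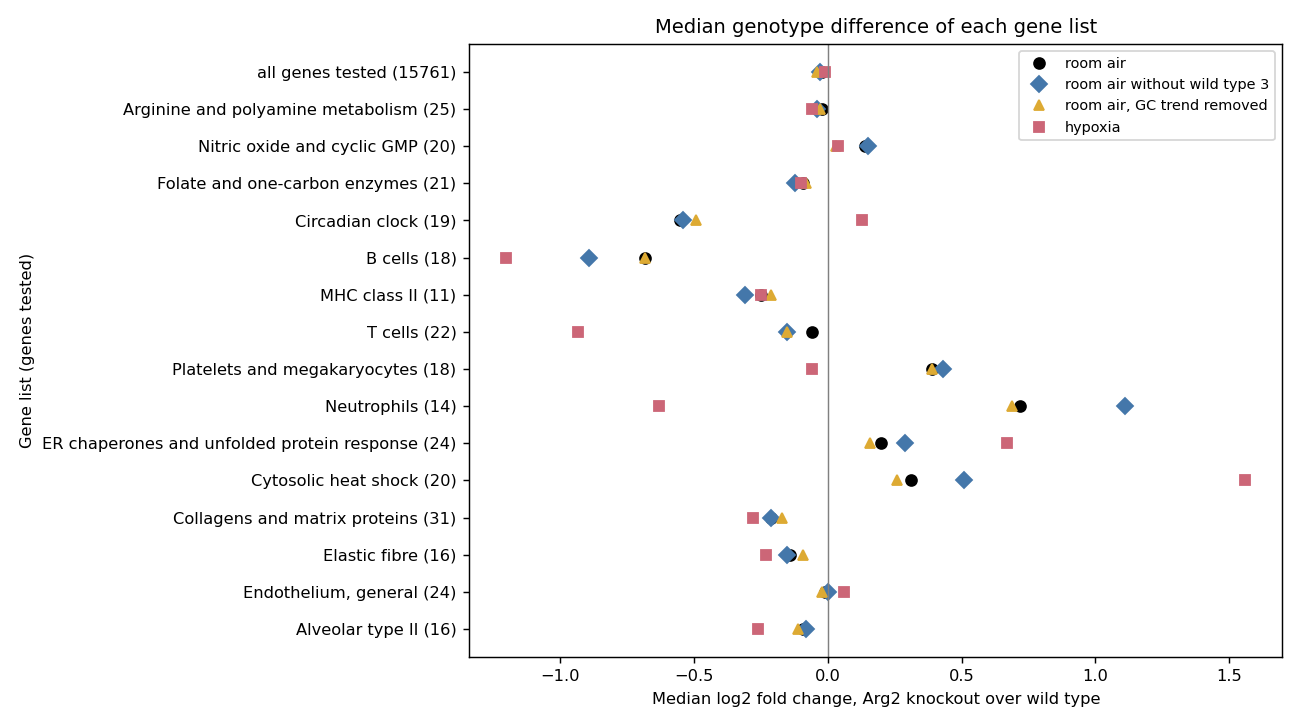
Median log2 fold change, knockout over wild type, of 15 gene lists and of all genes tested, in room air with all samples (circles), without wild type 3 (diamonds), with the GC trend removed (triangles) and in hypoxia (squares). In room air B cell genes lie at -0.68 and clock genes at -0.55, while in hypoxia clock genes lie at 0.13 and cytosolic heat shock genes at the high end.

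Over the 50 lists, 907 distinct genes, edgeR called 4 members (Lox, Mthfd1, Rgs18 and Vwa8), beside 0.0761% of all genes, and 46 lists held none of its calls. The lists were chosen with earlier results of these data known, so this count cannot be weighed against the share of all genes. Markers of tissue next to the lung varied from sample to sample. Dntt and Rag1, which act in developing lymphocytes, reached 12.7 and 11.6 CPM (Dntt) and 46.2 and 35.3 CPM (Rag1) in knockout 3 and the sample labelled knockout 4. Elsewhere Dntt was at most 0.594 CPM and Rag1 at most 0.86 CPM. The 9 thymocyte markers tested beside the ubiquitous Rmrp summed to 160.8 and 147 CPM in these samples and to 67.2 to 90.7 CPM in the other 6. Nppa, the atrial peptide, was at 10.4, 3.29, 4.19 and 0.764 CPM in wild type 1 to 4 and 9.44, 11.6, 187 and 23.9 CPM in knockout 1 to 4. Acta1, the actin of skeletal muscle, was at 319 CPM in wild type 1 and at most 15.1 CPM elsewhere. All 16 skeletal muscle markers tested had negative log2 fold changes, with 0 called by edgeR and 15 at an unadjusted p under 0.05, and their summed level was 2027 CPM in wild type 1 against 54.8 to 129 CPM in the other 7 samples. The 18 cardiac markers were all positive, with 0 called and 2 at an unadjusted p under 0.05; they summed to 428 to 822 CPM in wild type and 549.6 to 1285 CPM in knockout samples, knockout 3 the highest. Without knockout 3 and the sample labelled knockout 4 the median of the B cell list moved from -0.68 to -0.38, of the neutrophil list from 0.72 to 0.16, of the thymocyte list from 0.32 to -0.28, of the collagen and matrix list from -0.21 to -0.12 and of the elastic fibre list from -0.14 to -0.05. DESeq2 had called 3 of the 10 thymocyte markers higher with all samples, and edgeR and limma voom 0. The medians of the clock, platelet and endoplasmic reticulum lists moved to -0.61, 0.47 and 0.21. The part of the muscle markers in the results was not tested. Leaving out knockout 3 and the sample labelled knockout 4 left 0 calls in edgeR, with 1922 genes at an unadjusted p under 0.05, and leaving out wild type 1 and 3 gave 2260 calls.

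Mthfd1 lies 2.86 megabases (Mb) from Arg2 on chromosome 12, so the neighbours of Arg2 were described by position. Within 5 Mb 75 other genes were tested. Of these 1 was called in room air (Mthfd1), beside 0.0761% of all genes, and 14 without wild type 3, beside 13.8%. In hypoxia 18 were called, beside 23% of all genes, and 7 were called both there and without wild type 3. The nearest genes, Vti1b and Rdh11, stood at 0.07 ± 0.10 and 0.14 ± 0.11 (edgeR adjusted p = 0.742 and 0.501). Zfyve26, which acts in the renewal of lysosomes and lies 0.121 Mb away, was at 55.9, 74.7, 46.0 and 63.8 CPM in wild type 1 to 4 and 45.5, 44.4, 38.8 and 39.2 CPM in knockout 1 to 4. Its difference of -0.52 ± 0.12 came without overlap and with an edgeR adjusted p of 0.0631. Syne2, which links nuclei to the cytoskeleton and lies 3.18 Mb away, stood at -0.44 ± 0.09 (edgeR adjusted p = 0.0528). Rhoj, a GTPase of endothelial cells 3.79 Mb away, stood at 0.48 ± 0.11 (edgeR adjusted p = 0.0636). All 3 had the same sign in hypoxia and were called there. Besides the nearest genes, neighbours of Arg2 were named if called in room air or in hypoxia. The hypoxia calls of these 3 therefore follow in part from the choice.

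The hypoxia samples share no sample with the room air groups and hold the same genotypes. All 12 room air genes kept their sign there and 10 were called, beside 23% of all genes. H3f3b (0.11, edgeR adjusted p = 0.5) and Rgs18 (0.39, 0.141) were the 2 that were not. For none of the 12 did the test of the difference between the effects pass, at adjusted p of 0.0914 or more in edgeR, with 0.501% of all genes passing it (0.222% with the higher and 0.279% with the lower room air effect). Mthfd1 differed by -0.93 in hypoxia against -0.50 in room air. Of the 2188 genes called without wild type 3, 2046 (93.5%) had the same sign in hypoxia. The share of all genes with the same sign was not counted. Of the 2188, 986 were called in hypoxia in the same direction, beside 11% of all genes called higher and 12.1% called lower there. Across 15761 genes, which are not independent, the room air and hypoxia differences had a Pearson correlation of 0.36 and a Spearman correlation of 0.46. The comparisons share library protocol but no sample. They also share a fit, whose estimate of the spread of each gene is drawn from all 4 groups. Calls in the 2 settings are therefore not independent.

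**Figure D5:**
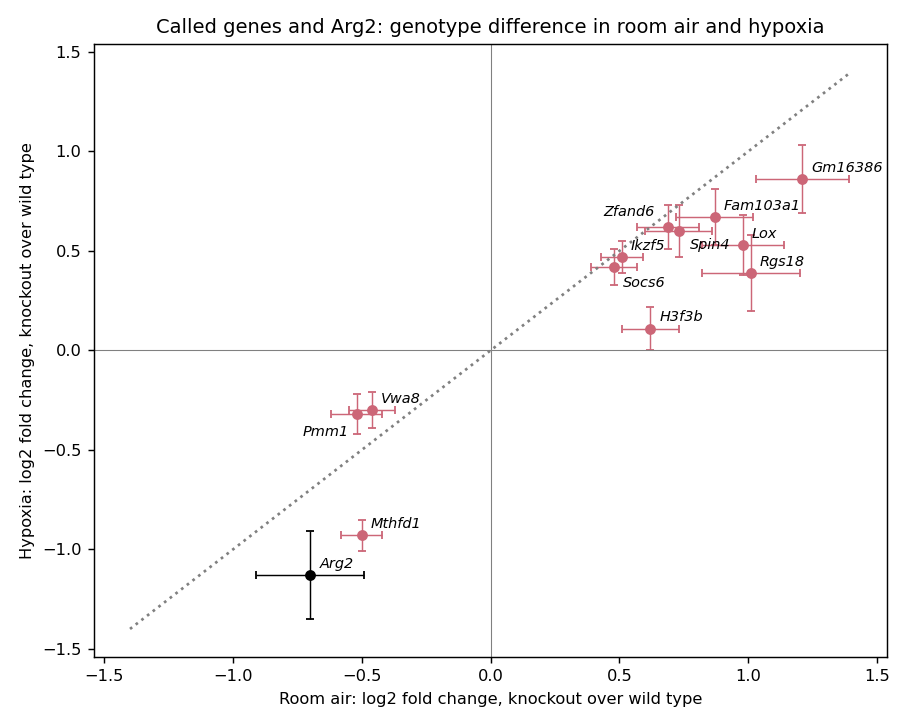
Log2 fold change, knockout over wild type, in room air (horizontal) and hypoxia (vertical) for Arg2 and the 12 called genes; bars are standard errors of the fit and the dotted line marks equal differences. Every point has the same sign on both axes, H3f3b lies near 0.11 in hypoxia and Mthfd1 lies below the line.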

How the data were processed

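Members and gene lists were chosen with earlier results of these data known. The deposited files hold raw read counts per gene; per the submitters' processing notes, Trim Galore, TopHat2 and HTSeq were used with mm10, while the sources used here give no versions, annotation or strand setting. The 5 lines that name no gene were dropped. Reads in no gene were 39.9% to 74.4% of uniquely aligned reads in room air samples and 35.5% to 64.3% in hypoxia samples. A and B libraries of a number were summed; their counts had a Pearson correlation of 0.9805 to 0.9922 and a chi-square of 2.31 to 2.76 per degree of freedom. All 16 samples in 4 groups entered edgeR 4.0.16 in R 4.3.3 (TMM scaling, filterByExpr at its defaults of 10 and 15 counts, robust quasi-likelihood fit, two-sided tests, Benjamini-Hochberg adjustment), which kept 15766 of 24062 genes. Genes of the Y chromosome, Xist and Tsix were left out of counts. The steps were tested on simulated data. DESeq2 1.42.0 and limma 3.58.1 served as alternatives. The GC step removed a loess trend with span 0.3 per sample. Coordinates and transcript GC are from GENCODE vM21 on GRCm38.

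Named genes are Arg2, the called genes and those of smallest p up to 10 per direction with at least 1 CPM. To these come called or leading members of each list and the largest differences without overlap. Chromosome 12 genes within 5 Mb of Arg2 were added if called in room air or hypoxia, or if nearest to it. Also added were the 8 genes each way of smallest p without wild type 3, and markers of other organs. The text names 60 of these 132 genes and 12 others picked after their values were seen.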

Additional observations from a re-analysis of the deposited data

Results flagged for a closer look

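With 4 samples a group, a sample whose gap to its nearest neighbour took over 0.829 of the group's range was marked, which chance gives in about 1 in 20 groups. The share of uniquely aligned reads in genes marked wild type 3, at 25.3%. Wild type 3 was also marked high among wild type samples for Creld2 (36.8 CPM), Tmed7 (212 CPM), Ptma (94.0 CPM), Lypla1 (76.0 CPM), Hspa5 (784 CPM) and Rag1 (0.860 CPM), and low for Col6a3 (217 CPM) and Arg1 (1.07 CPM). In all of these genes but Rag1 its level was nearer the knockout mean than the mean of the other wild type samples. For Arg1 it lay below every other sample of both groups. Tmed7, Ptma and Lypla1 were chosen by a fit without wild type 3, and Hspa5 and Arg1 after their values were seen. For these genes the nearness of wild type 3 to the knockout mean can follow in part from the choice.

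Wild type 4 was marked high for 3 clock genes, Dbp (159.9 CPM), Per3 (156 CPM) and Ciart (17.3 CPM). Wild type 1 was marked for Acta1 (319 CPM), an actin of skeletal muscle. Among knockout samples, number 1 was marked for Acta1 (15.1 CPM) and Ddah1 (40.03 CPM) on the high side and for Sftpc (9036 CPM) on the low side. Number 3 was marked for Nppa (187 CPM) on the high side and for Zfand6 (72.7 CPM) and Ppbp (48.5 CPM) on the low side. The sample labelled knockout 4 was marked high for Mmp8 (36.9 CPM) and low for Siglec1 (15.1 CPM).

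For 4 of the named genes the genotype difference in room air differed from that in hypoxia by edgeR's interaction test. Room air minus hypoxia, on the log2 scale, was -1.13 for Creld2, -1.08 for Hspa5, -2.37 for Ciart and -1.18 for Fbln2, with adjusted p of 0.00148, 0.00872, 0.0367 and 0.0153. Creld2 and Hspa5 differed in the same direction in both settings and more in hypoxia, while Ciart and Fbln2 changed sign. Pancreas and gut markers were also higher in the knockout in hypoxia, and their part in these differences was not tested.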

How the results depend on the processing

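The number of called genes depended on nearly every choice, while no named gene that was called reversed its sign. Against 12 calls, edgeR gave 29 with DESeq2 size factors, 113 with upper quartile scaling, 20 without a filter, 34 with at least 1 CPM in 8 samples, 207 with the A libraries alone and 4 with the room air groups alone. DESeq2 called 1002, limma voom 958 and limma voom with sample quality weights 2074. Removing the GC trend gave 99. Leaving out 1 sample gave 0 to 2197: 2197 without wild type 3, 3 without knockout 4 and 0 without any other. At an unadjusted p under 0.05 the fits with 0 calls had 2073 to 3192 genes. Leaving out knockout 3 and 4 gave 0 (1922 unadjusted), leaving out wild type 1 and 3 gave 2260, and leaving out wild type 3 with the GC trend removed gave 1119. The room air groups alone without wild type 3, chosen after seeing the data, gave 2332. The cause of these shifts was not tested. All 12 calls remained in DESeq2, both limma fits and without wild type 3, 11 without a filter, and 6 with the GC trend removed. With the room air groups alone 1 of the 12 stayed called. With the replicate block in the room air groups alone 0 did.

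With the sample number as a replicate block edgeR called 238 genes, with the block and GC removal 35, and with the block in the room air groups alone, chosen after seeing the data, 6. Deviations of same-numbered samples correlated at 0.277, 0.0926, 0.329 and 0.183. Every knockout sample correlated best with the wild type sample of its own number, and so did wild type 1, 3 and 4 with the knockout samples; wild type 2 correlated best with knockout 1 (0.133). The labels do not state what a number shares, and 1 pair missed the minimum of 0.1, so the fit without the block is the one reported; the correlations are a hint of pairing from the data.

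Arg2 stayed between -0.89 and -0.55 in all 25 alternatives and passed in 3: DESeq2 (-0.69), limma voom (-0.71) and limma voom with quality weights (-0.69), at adjusted p of 0.0303, 0.0334 and 0.0170. Depth was lowest in wild type 3, at 9531270 reads in genes, where a count of 0 allows 0.315 CPM.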

Other observations

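Alveolar type II markers had a median of -0.09 over 16 genes with 0 called by edgeR. Of these 7 had an unadjusted p under 0.05, beside 21.6% of all genes. In the fit without wild type 3, 2 were called higher and 4 lower (beside 8.13% and 5.68% of all genes), and with the GC trend removed as well 0 were called. Their summed level was 27510 to 30470 CPM in wild type and 27340 to 31970 CPM in knockout samples. Over 35 nuclear genes of the respiratory chain the median log2 fold change was 0.01, with 0 called by edgeR and 2 at an unadjusted p under 0.05. Targets of hypoxia-inducible factors had a median of 0.02 over 33 genes with 0 called and 9 at an unadjusted p under 0.05. Cell cycle genes had a median of 0.04 over 30 genes with 0 called and 5 at an unadjusted p under 0.05, and general endothelial markers -0.01 over 24 genes with 0 and 5. Immediate early genes, which respond within minutes to handling, were positive in 18 of 22, with a median of 0.24, 0 called and 3 at an unadjusted p under 0.05. Each of these counts at an unadjusted p under 0.05 stands beside 21.6% of all genes.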
